A study of Mus musculus with 2 samples.

Results

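Cholesterol and fatty acids are built from acetyl-CoA by enzymes whose genes are largely under shared control. The 30 genes described here are 22 sterol genes, of which 18 encode enzymes and 4 encode factors of sterol control or transport, and 8 fatty acid genes. They were taken by name, and all 30 were found among the 24866 genes of the count table. They were followed over the 653 of 658 wells with at least 500 detected genes and at most 20% of counts from mitochondrial (mt-) genes.

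The wells held single cells from the femurs of 2 C57/B6 littermates on postnatal day 6, both of genotype CTSK-cre+ mTMG. Here the promoter of Ctsk, the gene of the protease cathepsin K, drives Cre, and membrane GFP marks cells with present or past Cre activity and their descendants. Only CTSK-mGFP positive cells were sorted, so no reporter-negative cells and no other genotype stood beside them. Animal 1 filled plate 47 and animal 2 filled plate 48, hence animal and plate cannot be told apart. Kept wells numbered 318 of 319 in animal 1 and 335 of 339 in animal 2, with median totals of 101207 and 119126 counts per cell. The labels call these mesenchymal cells. Of the markers of endothelial cells (8 in the table), macrophages (9) and adipocytes (8), none had 5 or more counts in 5% of the cells. Of 8 osteoclast markers 1 did, and the list summed to as much as 612 CPM in a tested class of 1 animal. Of 5 Schwann cell markers 1 did, with sums up to 449 CPM.

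In the mevalonate pathway, Hmgcs1 joins acetyl units and the later enzymes turn the product into isoprenoids, squalene, lanosterol and at last cholesterol. The transcription factor SREBP2, encoded by Srebf2, raises these genes when membranes are short of sterol, while the SREBP1 proteins from Srebf1 act more on fatty acid genes, and Insig1 holds the precursors of both in the endoplasmic reticulum. SREBPs bind sterol response elements in promoters, usually next to sites of NF-Y, which binds CCAAT, and Sp1, which binds GGGCGG. Growth plate cartilage is a tissue in which sterol synthesis matters, since inherited defects of several of these enzymes disturb skeletal growth.

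Promoters are shown here for 5 members whose levels the results below turn on. The windows are RefSeq sequence on GRCm38.p6, 5′ to 3′ on the strand of the gene, from 250 bases before the gene's start and ending there or before the closest annotated exon. Capitals mark CCAAT on either strand (read as ATTGG on the other) and the sterol response element core TCACNCCAC.
Hmgcs1, chr13:119690101-119690350, plus strand: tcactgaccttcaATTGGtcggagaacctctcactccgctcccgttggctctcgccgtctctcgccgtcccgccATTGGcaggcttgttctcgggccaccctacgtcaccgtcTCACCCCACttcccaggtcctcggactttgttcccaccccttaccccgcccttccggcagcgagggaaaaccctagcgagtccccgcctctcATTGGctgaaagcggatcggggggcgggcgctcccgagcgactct
Sc5d, chr9:42264301-42264550, minus strand: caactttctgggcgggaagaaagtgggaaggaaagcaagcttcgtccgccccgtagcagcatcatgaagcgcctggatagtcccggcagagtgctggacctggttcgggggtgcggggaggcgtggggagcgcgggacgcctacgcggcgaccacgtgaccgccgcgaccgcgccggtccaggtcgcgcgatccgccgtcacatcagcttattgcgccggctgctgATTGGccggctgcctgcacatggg
Ebp, chrX:8193513-8193762, minus strand: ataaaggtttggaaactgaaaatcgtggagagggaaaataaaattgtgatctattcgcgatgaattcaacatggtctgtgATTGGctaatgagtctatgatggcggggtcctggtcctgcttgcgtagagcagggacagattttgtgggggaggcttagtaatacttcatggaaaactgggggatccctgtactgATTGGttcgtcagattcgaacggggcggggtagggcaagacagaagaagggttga
Insig1, chr5:28071162-28071362, plus strand: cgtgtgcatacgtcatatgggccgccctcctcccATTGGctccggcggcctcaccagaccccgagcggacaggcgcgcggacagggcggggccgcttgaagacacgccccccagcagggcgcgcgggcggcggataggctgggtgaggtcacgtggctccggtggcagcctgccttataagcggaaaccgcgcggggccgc
Fasn, chr11:120824548-120824797, minus strand: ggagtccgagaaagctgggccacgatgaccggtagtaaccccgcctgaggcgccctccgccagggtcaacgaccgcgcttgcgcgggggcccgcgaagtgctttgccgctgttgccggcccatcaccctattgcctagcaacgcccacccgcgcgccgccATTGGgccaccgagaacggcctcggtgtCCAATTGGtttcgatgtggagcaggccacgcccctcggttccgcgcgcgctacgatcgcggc

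Of the 30 members, 23 matched a promoter by symbol; Sqle, Fdft1, Fdps, Fads1, Scd1, Scd2 and Stard4 did not. Searched on both strands over the 250 bases, CCAAT stood in 17 of the 18 matched sterol genes, all but Acat2, and in 1 of the 5 matched fatty acid genes, Fasn. It stood in 40.3% of the 9542 tested genes with a promoter and in 37.5% of all 27025 symbols. GGGCGG stood in 17 of 18 sterol genes, all but Pmvk, and in 2 of 5 fatty acid genes, Acly and Fads2, against 64.9% of tested genes and 35.4% of all symbols. TCACNCCAC was found in Hmgcs1 alone, starting 137 bases before the gene's start, against 1.17% of tested genes and 1.22% of all symbols. These are matches of letters in a short window and not binding sites, and genes with several listed starts had several windows searched.

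Cells were grouped by clustering on 116 marker genes alone, none of them a member, so no member's count was used to form the groups. Members can still vary with the markers or with depth. Chondrocyte-like cells numbered 53 in animal 1 and 49 in animal 2, and were led by Matn3, Col9a2 and Ucma. Periosteal fibroblast-like cells numbered 73 and 80 (clusters 1 and 8), articular/synovial-like cells 50 and 65, tendon/ligament-like cells 40 and 31, and osteoblast-like cells 19 and 18. The osteoblast-like class of 37 cells may be mixed. It held 22 cells at a coarser resolution of 0.5 and 17 with clusters on variable genes. In the latter, some of the 37 cells fell in the chondrocyte-like cluster. The 12 chondrocyte markers in the table summed to 8589 and 9327 CPM in osteoblast-like cells. They summed to 33092 and 27426 CPM in chondrocyte-like and 208 and 203 CPM in periosteal fibroblast-like cells. The periosteal fibroblast-like name rests on fibroblast markers such as Mfap5, Dpt, Clec3b, Cd34 and Ly6a, and does not place the cells in the periosteum. A list of periosteal progenitor genes (Ptn, Postn, Gas1, Aspn and Mest) summed to 6545 and 5664 CPM in them. That list was higher in cluster 6, at 11397 and 9269 CPM. Cluster 3 (35 and 72 cells) stayed unnamed: 6 chondrocyte markers, among them Col2a1, were higher in it, but Tnnt3 and Gpha2 led it. Cluster 6 (34 and 16 cells) was led by Crabp1, Megf6 and Ostn, and also stayed unnamed. Mural-like cells (14 and 4) fell under the minimum of 10 cells per animal and were not tested.

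The 22 sterol genes together were highest in chondrocyte-like cells, at 991 CPM (counts scaled to a common class total) in animal 1 and 1008 CPM in animal 2. Osteoblast-like cells followed at 751 and 756 CPM, then cluster 3 at 835 and 590.5 CPM and cluster 6 at 566 and 439.95 CPM. Periosteal fibroblast-like cells had 440.1 and 422 CPM, articular/synovial-like cells 387 and 461 CPM, and tendon/ligament-like cells 423 and 411 CPM. Both chondrocyte-like values lay above the other 12, and those of the last 3 classes overlapped one another. Whether chondrocyte-like cells within the osteoblast-like class raised its sterol sum, or its sterol genes seen per cell, was not tested. The chondrocyte-like sum was 2.32 times the periosteal fibroblast-like sum, 2.25 times in animal 1 and 2.39 times in animal 2. In bulk sums of a class, fewer cells with a transcript and less of it per cell cannot be told apart.

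The 8 fatty acid genes differed less between the same classes. Their sum was 519 and 567 CPM in chondrocyte-like cells, 357 and 552 CPM in tendon/ligament-like cells and 383 and 442 CPM in periosteal fibroblast-like cells. It was 431 and 269 CPM in cluster 3, 393 and 277 CPM in cluster 6, 276 and 391 CPM in osteoblast-like cells, and 241 and 288 CPM in articular/synovial-like cells. The values of most classes overlapped. The chondrocyte-like sum was 1.36 and 1.28 times that of periosteal fibroblast-like cells in the 2 animals, and Scd2 alone held 50.05% of all fatty acid counts. A coarser clustering (resolution 0.5) had 207 chondrocyte-like cells and no separate cluster 3, and there the ratio was 1.10, with 0.952 in 1 animal and 1.27 in the other.

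**Figure D1:**
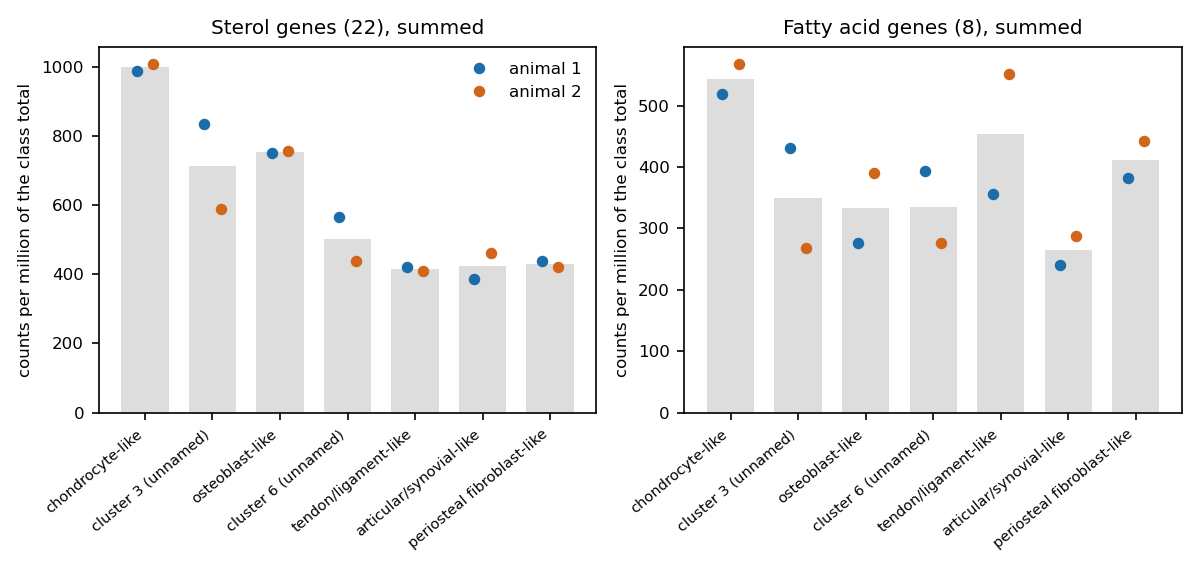
Summed CPM of the 22 sterol genes (left) and the 8 fatty acid genes (right) by cell class; points are the 2 animals and bars their mean. The sterol sum reaches 991 and 1008 CPM in chondrocyte-like cells and stays between 387 and 461 CPM in the 3 classes on the right, while the fatty acid sums of most classes overlap.

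Cells of these classes also differed in other gene lists. Immediate early and heat shock genes, a list of 15 that cell dissociation is known to induce, summed to 10858.5 and 15619 CPM in chondrocyte-like cells and to 12489 and 13123 CPM in cluster 3, against 5663 and 5798 CPM in periosteal fibroblast-like cells. Of these 15, Fos, Ier2, Zfp36, Hspa1a and Dnajb1 were higher in chondrocyte-like than in periosteal fibroblast-like cells (edgeR quasi-likelihood test, adjusted p from 0.00576 to 0.0278). Of all genes, 2.02% passed in this comparison, in either direction. Without the highest well of each class and animal Hspa1a and Dnajb1 were at 0.123 and 0.0826, and Dnajb1 reached 0.103 over the alternative settings. A list of 15 cell cycle genes went the other way, at 491 and 193 CPM in chondrocyte-like and 761 and 619 CPM in periosteal fibroblast-like cells. The part of either list in the sterol difference was not tested. By class mean, the dissociation list was highest in chondrocyte-like cells (13238.5 CPM), cluster 3 (12806 CPM) and osteoblast-like cells (9735 CPM). The same classes had the highest mean sterol sums. Of the tested classes it was lowest in tendon/ligament-like cells (4895 CPM), which also had the lowest mean sterol sum. The dissociation list was at 8208 and 11261 CPM in osteoblast-like cells, which had high sterol sums, and at 7916 and 10185 CPM in articular/synovial-like cells, which had low ones. The cell cycle list was at 108 and 139 CPM in osteoblast-like cells and at 976 and 725 CPM in cluster 3, both with sterol sums above those of periosteal fibroblast-like cells.

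Each class was then tested against the mean of the other 6, and chondrocyte-like against periosteal fibroblast-like cells directly. The test was edgeR's quasi-likelihood fit on counts summed per class and animal, with Benjamini-Hochberg adjustment over 13722 genes and a threshold of 0.05. No member of the 30 passed in any of the 8 comparisons. Over all genes, 0.845% passed for chondrocyte-like cells, 2.15% for periosteal fibroblast-like cells, 0.408% for cluster 3, 0.335% for cluster 6, 0.758% for osteoblast-like cells, 0.51% for tendon/ligament-like cells, 0.00729% for articular/synovial-like cells and 2.02% in the direct comparison. At these shares fewer than 1 of 30 genes would pass, so the count of 0 says little about the members. The p-values rest on 2 littermates.

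At an unadjusted p under 0.05, 9 of 30 members were above the other classes in chondrocyte-like cells and none below, against 7.97% of all genes above and 10.7% in either direction. These were Hmgcs1, Idi1, Lss, Cyp51, Msmo1, Sc5d, Nsdhl, Insig1 and Scd2. Lss had no count in cluster 3 or osteoblast-like cells and Idi1 none in cluster 6, so the sizes of their fitted differences are not bounded there. Idi1 is also among the members counted below for cluster 6, cluster 3 and osteoblast-like cells. In the direct comparison 5 of 30 had such a p, all above, against 10.2% of genes in either direction and 4.9% above, and in periosteal fibroblast-like cells 2 of 30, against 14.2%. The counts were 5 for cluster 6 (9.7% of genes), 2 for cluster 3 (9.13%), 2 for osteoblast-like cells (11.6%), 2 for articular/synovial-like cells (6.76%) and 0 for tendon/ligament-like cells (11%). DESeq2's Wald test called 2 members, Fasn and Insig1, for periosteal fibroblast-like cells and 3, with Msmo1, in the direct comparison, and none elsewhere. Over all genes it called 5.86% for periosteal fibroblast-like cells and 7.43% in the direct comparison, so these counts also say little about the members.

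The fitted differences of the sterol genes lay mostly on the chondrocyte-like side. Against the other classes, their median log2 difference was 1.29 (19 of 22 above 0), against 0.21 over all genes. In the direct comparison it was 1.47 (19 of 22 above 0), against -0.04 over all genes. With class sums under 3 counts set to 3 counts, the medians were 1.37 and 1.63, with 21 and 20 of 22 above 0, against medians of 0.12 and 0.01 and shares above 0 of 54.6% and 50.3% over all genes. The 8 fatty acid genes had medians of 1.01 and 1.02, with 8 and 7 of 8 above 0. These medians describe genes chosen with earlier results of these cells known.

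In 13 of 22 sterol genes both chondrocyte-like sums were above both periosteal fibroblast-like sums, and in none both below. The shares of all genes were 18.8% above and 28.9% below. The 13 were Hmgcs1, Sqle, Fdps, Fdft1, Lss, Cyp51, Msmo1, Sc5d, Mvd, Pmvk, Hsd17b7, Insig1 and Stard4. Of the fatty acid genes, Fasn, Scd2, Acaca and Elovl6 were above in this sense and Scd1 was below. Lss, Msmo1 and Hsd17b7 were above every sum of the other 6 tested classes, as were 1.89% of all genes. The chondrocyte-like mean was the highest of the 7 classes for 8 of 22 sterol and 4 of 8 fatty acid genes, against 12.3% of all genes.

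**Figure D2:**
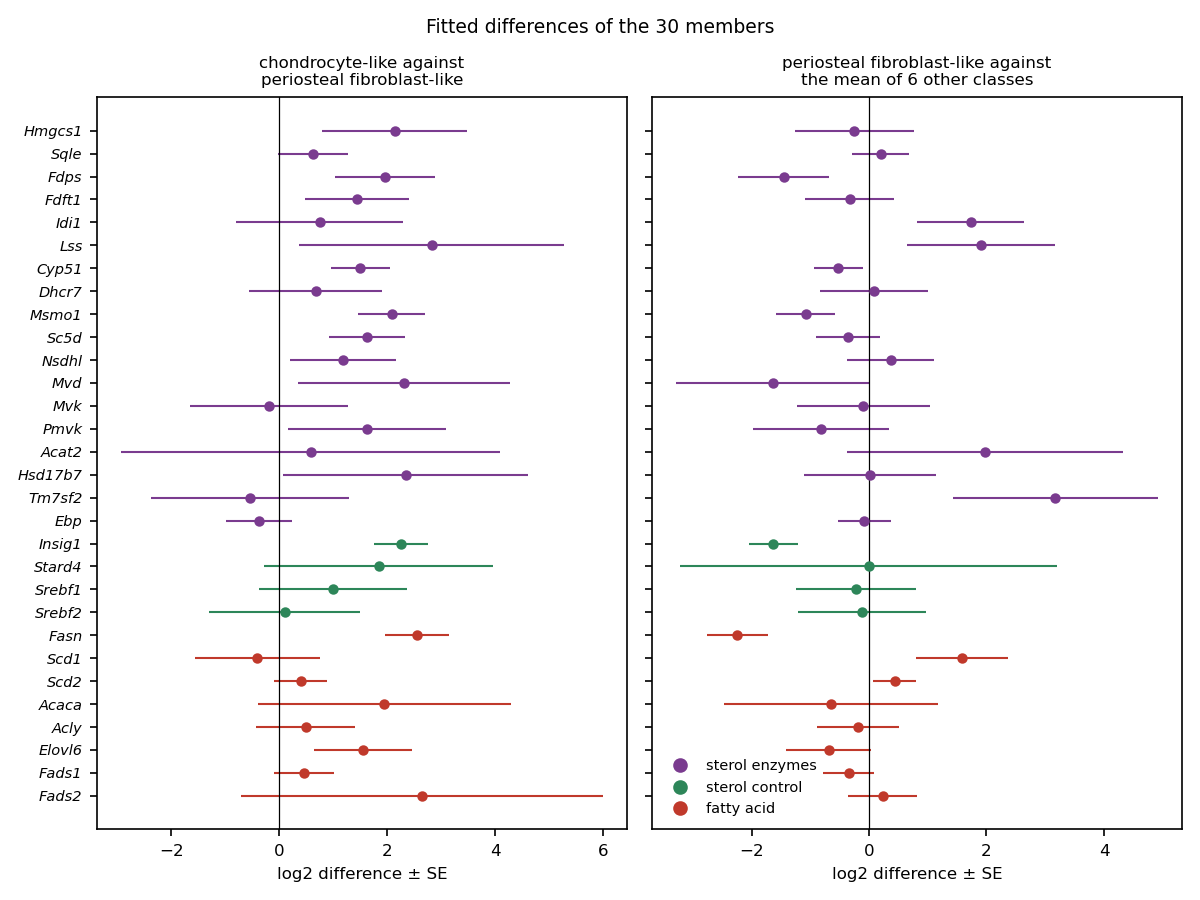
Fitted log2 differences with their standard errors for the 30 members, by role, for chondrocyte-like against periosteal fibroblast-like cells (left) and periosteal fibroblast-like cells against the mean of the other 6 classes (right). On the left 26 of 30 points lie above 0 and none passed the threshold; on the right Fasn and Insig1 lie farthest below 0 in units of their error.

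Among the mevalonate enzymes, Hmgcs1, which makes HMG-CoA, had 98.1 and 213 CPM in chondrocyte-like cells, 146 and 46.8 CPM in cluster 3, and 39.7 and 47.3 CPM in periosteal fibroblast-like cells. In osteoblast-like cells it had 57.8 and 13.6 CPM, in cluster 6 80.4 and 3.96 CPM, in tendon/ligament-like cells 53.9 and 7.79 CPM, and in articular/synovial-like cells 15.0035 and 68.2 CPM. The animals lay close in the periosteal fibroblast-like class and far apart in the other 6. The direct log2 difference was 2.14 ± 1.33 (SE, adjusted p = 0.672, edgeR). Pmvk, which adds a phosphate to phosphomevalonate, had 49.6 and 63.7 CPM in chondrocyte-like and 19.1 and 22.3 CPM in periosteal fibroblast-like cells. Mvk, the mevalonate kinase, did not share this order, with 22.5 and 15.3 CPM against 33.6 and 16.7 CPM.

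Mvd, the decarboxylase of the pathway, was sparse, at 17.6 and 9.01 CPM in chondrocyte-like and 1.29 and 3.86 CPM in periosteal fibroblast-like cells. Fdps, which makes farnesyl diphosphate, had 16.4 and 28.05 CPM in chondrocyte-like, 22.98 and 51.2 CPM in osteoblast-like and 2.96 and 10.7 CPM in periosteal fibroblast-like cells. Its counts were spread thinly: 22.4% of all cells had a count but 12.6% had 5 or more. Idi1, the isopentenyl diphosphate isomerase, stayed at or under 8.11 CPM in all tested sums and had no count in cluster 6. Acat2, an acetyl-CoA acetyltransferase, had 10.5 and 15.1 CPM in chondrocyte-like cells, 4.10 and 10.3 CPM in cluster 3, 15.5 and 0 CPM in periosteal fibroblast-like cells and 8.84 and 0 CPM in osteoblast-like cells. It had 0 and 10.9 CPM in tendon/ligament-like cells, 0.211 and 7.05 CPM in cluster 6, and no count in articular/synovial-like cells, where 3 counts would be 0.682 and 0.440 CPM. In most classes other than the chondrocyte-like one, 1 of the animals was thus at or near 0.

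Of the enzymes from farnesyl units to lanosterol, Fdft1 (squalene synthase) had 37.1 and 38.2 CPM in chondrocyte-like and 10.9 and 19.8 CPM in periosteal fibroblast-like cells. Sqle, the squalene epoxidase, had 60.6 and 41.05 CPM against 36.7 and 33.8 CPM, and was higher still in the osteoblast-like cells of animal 1 (99.6 CPM) but not of animal 2 (28.1 CPM). Lss, which closes the sterol ring to give lanosterol, had 18.4 and 10.8 CPM in chondrocyte-like cells. It had 1.93 and 2.67 CPM in periosteal fibroblast-like cells, 1.59 and 2.64 CPM in articular/synovial-like cells, 8.44 and 0 CPM in cluster 6, 0 and 0.935 CPM in tendon/ligament-like cells, and no count in cluster 3 or osteoblast-like cells. Lss was seen in few cells, with 5 or more counts in 9.80% of chondrocyte-like and 1.31% of periosteal fibroblast-like cells. Since 2 classes had no Lss count, its fitted difference from the other classes depends on the prior count and is not given.

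Of the enzymes that turn lanosterol into cholesterol, Msmo1, the methylsterol monooxygenase, had 154 and 173 CPM in chondrocyte-like cells, 149 and 102 CPM in cluster 3 and 105 and 73.5 CPM in osteoblast-like cells. It had 97.1 and 27.7 CPM in tendon/ligament-like, 83.7 and 36.6 CPM in cluster 6, 46.1 and 84.6 CPM in articular/synovial-like and 40.7 and 46.4 CPM in periosteal fibroblast-like cells. The chondrocyte-like sums were the highest in both animals, 3.78 and 3.72 times the periosteal fibroblast-like ones, with a direct log2 difference of 2.08 ± 0.62 (SE, adjusted p = 0.198, edgeR; 0.0342 by DESeq2's Wald test and 0.559 without the highest well of each class and animal). Against the mean of the other classes it was 1.34 ± 0.41 (adjusted p = 0.237).

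Cyp51, the lanosterol demethylase, had 92.4 and 81.96 CPM in chondrocyte-like cells and 49.6 and 23.3 CPM in periosteal fibroblast-like cells. Its difference from the other classes was 1.23 ± 0.37 on the log2 scale (SE, adjusted p = 0.219, edgeR), although osteoblast-like cells had 92.5 and 36.9 CPM. Cyp51 had 73.1 and 42.5 CPM in cluster 3, 32.3 and 32.1 CPM in cluster 6, 29.3 and 35.3 CPM in articular/synovial-like cells and 27.8 and 30.5 CPM in tendon/ligament-like cells. Sc5d, the sterol desaturase, had 51.8 and 59.8 CPM in chondrocyte-like, 18.5 and 22.5 CPM in periosteal fibroblast-like and 9.23 and 11.1 CPM in cluster 3 cells. Its difference from the other classes was 1.54 ± 0.47 (SE, adjusted p = 0.236, edgeR). Chondrocyte-like cells and cluster 3 were not tested against each other.

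Hsd17b7, a ketoreductase of the pathway, had 54.4 and 40.7 CPM in chondrocyte-like cells and 3.86 and 11.1 CPM in periosteal fibroblast-like cells. It had 18.0 and 14.3 CPM in tendon/ligament-like cells, 37.4 and 0.232 CPM in cluster 3, 17.1 and 0.339 CPM in osteoblast-like cells, 11.4 and 0 CPM in articular/synovial-like cells, and 5.48 and 11.5 CPM in cluster 6. Its direct log2 difference was 2.34 ± 2.27 (SE, adjusted p = 0.870, edgeR), an error as large as the difference. Nsdhl had 47.3 and 22.9 CPM in chondrocyte-like and 23.8 and 11.6 CPM in periosteal fibroblast-like cells. Dhcr7, the enzyme of the last step, had 17.3 and 21.4 CPM against 18.2 and 10.4 CPM, and Tm7sf2, a sterol reductase, had 1.36 and 19.4 CPM against 6.44 and 0.0989 CPM.

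Ebp, the sterol isomerase whose promoter carries CCAAT like most of the others, had another order. It had 82.7 and 184 CPM in cluster 6, 94.9 and 72.2 CPM in osteoblast-like, 89.8 and 51.6 CPM in articular/synovial-like and 63.9 and 74.3 CPM in periosteal fibroblast-like cells. It was 75.8 and 23.2 CPM in chondrocyte-like cells, 58.7 and 45.1 CPM in cluster 3 and 47.1 and 54.2 CPM in tendon/ligament-like cells. Chondrocyte-like cells of animal 2 had the lowest of these 14 values. For cluster 6 the log2 difference from the other classes was 1.11 ± 0.43 (SE, adjusted p = 0.446, edgeR), and between 0.21 and 1.78 over the alternative settings.

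**Figure D3:**
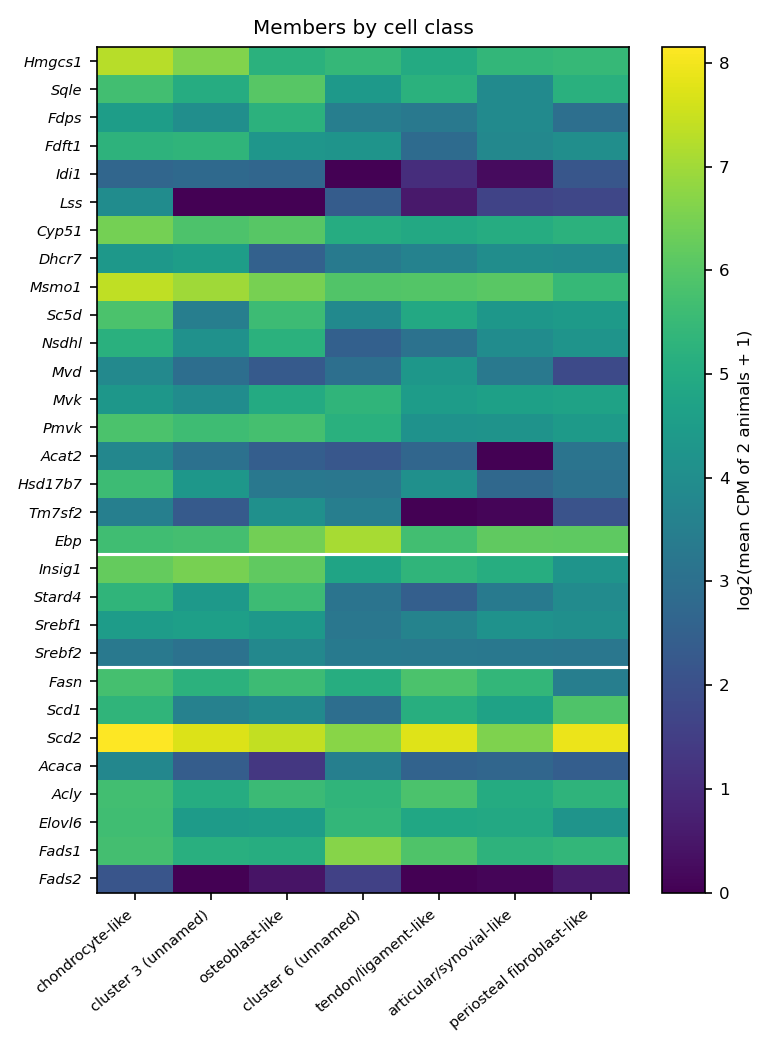
Mean CPM of the 2 animals, as log2(CPM + 1), for the 30 members (rows, by role: sterol enzymes, sterol control, fatty acid genes, divided by white lines) in 7 cell classes. CPM are not divided by transcript length, so rows compare classes and not genes; Msmo1 and Hmgcs1 are brightest in chondrocyte-like cells, at means of 163 and 156 CPM, and Ebp in cluster 6, at 133 CPM.

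In the control group Insig1 gave the smallest adjusted p of the 30 members. It had 79.6 and 67.9 CPM in chondrocyte-like cells, 96.4 and 82.2 CPM in cluster 3 and 58.3 and 84.4 CPM in osteoblast-like cells. It had 32.8 and 46.4 CPM in tendon/ligament-like, 25.9 and 39.1 CPM in articular/synovial-like, 32.1 and 20.7 CPM in cluster 6 and 19.3 and 15.8 CPM in periosteal fibroblast-like cells. The periosteal fibroblast-like sums were the lowest in both animals, and the first 3 classes lay above the other 4 without overlap. Chondrocyte-like cells had 4.12 and 4.29 times the periosteal fibroblast-like level, a log2 difference of 2.25 ± 0.50 (SE, adjusted p = 0.0666, edgeR). The adjusted p ran from 0.0149 to 0.212 over the alternative settings and fell under 0.05 with DESeq2's Wald test (0.0149), without the replicate block (0.0451) and with clusters on variable genes (0.0455).

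A count of Insig1 was seen in 37.3% of chondrocyte-like cells (95% Clopper-Pearson interval 27.9% to 47.4%) and in 13.7% of periosteal fibroblast-like cells (8.70% to 20.2%). After every cell was thinned to 10000 counts the shares were 25.5% and 7.84%. Median depths were 121534 and 110645 counts per cell. The intervals take the cells of both animals together as independent, so they do not cover the spread between animals. PCR reads are also not independent molecules. Cells of a plate can also receive reads from other wells. The cartilage collagen gene Col2a1 had a count in 99.3% of periosteal fibroblast-like cells and 5 or more in 77.8%. Whether these counts were expression or reads from other wells was not tested.

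The SREBP genes themselves showed no common order. Srebf2 had 6.18 and 11.3 CPM in chondrocyte-like and 10.05 and 6.72 CPM in periosteal fibroblast-like cells, and its class means ranged only from 7.44 to 12.8 CPM. Srebf1 had 34.4 and 8.62 CPM against 9.27 and 21.9 CPM, so that the animals pointed in opposite directions. Stard4, which carries cholesterol between membranes, had 42.5 and 36.2 CPM in chondrocyte-like and 11.5 and 17.4 CPM in periosteal fibroblast-like cells, with 1.03 and 38.8 CPM in cluster 3. Its direct log2 difference of 1.84 ± 2.12 (SE, adjusted p = 0.920, edgeR) was within its error.

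Among the fatty acid genes, Fasn, the fatty acid synthase, was low in periosteal fibroblast-like cells, at 7.60 and 12.7 CPM. It had 39.2 and 66.3 CPM in chondrocyte-like, 48.5 and 65.1 CPM in tendon/ligament-like and 52.4 and 42.4 CPM in osteoblast-like cells. It had 55.0 and 28.1 CPM in articular/synovial-like cells, 33.8 and 39.7 CPM in cluster 3 and 30.2 and 36.1 CPM in cluster 6. The 12 values outside the periosteal fibroblast-like class all lay above its 2. The log2 difference of that class from the others was -2.25 ± 0.52 (SE, adjusted p = 0.0707, edgeR), and that of chondrocyte-like from periosteal fibroblast-like cells was 2.55 ± 0.60 (adjusted p = 0.0818). Over the alternative settings the adjusted p ran from 0.00246 to 0.195 for the former, and its log2 difference was -4.54 without the highest well of each class and animal (adjusted p = 0.148). One well held 65.8% of the few Fasn counts in periosteal fibroblast-like cells, and 1.96% of these cells had 5 or more counts, against 15.7% of chondrocyte-like cells.

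Scd1 and Scd2, paralogous desaturases that make monounsaturated fatty acids, did not follow Fasn. Scd1 was highest in periosteal fibroblast-like cells, at 53.3 and 64.6 CPM, above 43.4 and 34.998 CPM in chondrocyte-like, 32.3 and 34.3 CPM in tendon/ligament-like and 22.7 and 27.4 CPM in articular/synovial-like cells. It had 5.60 and 21.7 CPM in osteoblast-like cells, 8.21 and 13.7 CPM in cluster 3 and 13.1 and 0.440 CPM in cluster 6. The periosteal fibroblast-like values lay above all 12 others. The log2 difference from the other classes was 1.59 ± 0.78 (SE, adjusted p = 0.426, edgeR). Without the highest well of each class and animal it was 4.26 (adjusted p = 0.0179); in cluster 6, 1 well held 96.8% of the Scd1 counts.

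Adipocyte markers bear on Scd1, since adipocytes make much of it. Fabp4 had 139 and 57.3 CPM in periosteal fibroblast-like cells against at most 22.7 CPM in any other tested sum. Adipoq, the adiponectin gene, had 13.7 and 0 CPM there, and Plin4 had no count in any cell. Pparg did not set this class apart, at 22.2 and 9.49 CPM against 23.6 and 11.2 CPM in osteoblast-like cells. Lipe stayed at or under 5.27 CPM in all tested sums. Of the Plin1 and Cidec counts, 98.3% and 100% came from 1 well, and Lep had 5 or more counts in 0 cells. Of the 26 periosteal fibroblast-like cells with 5 or more Scd1 counts, 1 also had 5 or more Fabp4 counts. Without the cells at 5 or more Fabp4 counts, Scd1 stood at 54.5 and 61.2 CPM in this class, against 53.3 and 64.6 CPM with them. The part of adipocytes in the Scd1 level was not tested.

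Scd2 had 303 and 264 CPM in chondrocyte-like, 219.99 and 262 CPM in periosteal fibroblast-like and 179 and 251 CPM in tendon/ligament-like cells. It had 309.8 and 111 CPM in cluster 3, 160.0 and 179.6 CPM in osteoblast-like cells, 142 and 62.5 CPM in cluster 6 and 80.2 and 109 CPM in articular/synovial-like cells. The direct log2 difference was 0.40 ± 0.49 (SE, adjusted p = 0.934, edgeR). Reads that Scd1, Scd2 and related copies share could have been assigned in ways not given in the sources used here.

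Fads1, the delta-5 desaturase of polyunsaturated fatty acids, was highest in cluster 6, at 111 and 88.96 CPM. It had 32.9 and 71.2 CPM in chondrocyte-like, 30.6 and 86.9 CPM in tendon/ligament-like, 35.4 and 46.4 CPM in periosteal fibroblast-like and 37.1 and 37.97 CPM in articular/synovial-like cells. It had 35.4 and 33.5 CPM in cluster 3 and 20.3 and 45.1 CPM in osteoblast-like cells. Both values of cluster 6 lay above all others, and its log2 difference was 1.30 ± 0.39 (SE, adjusted p = 0.284, edgeR), and between 0.32 and 1.78 over the alternative settings. Fads2, the delta-6 desaturase, was barely seen, with a count in 1.07% of all cells.

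Elovl6, which lengthens palmitate, had 42.3 and 56.9 CPM in chondrocyte-like and 20.1 and 15.2 CPM in periosteal fibroblast-like cells. Acly, which makes acetyl-CoA from citrate, had 35.4 and 64.5 CPM against 37.996 and 39.4 CPM. Acaca, the acetyl-CoA carboxylase, had 15.7 and 9.52 CPM against 7.08 and 1.68 CPM. Of the enzymes from citrate to palmitate, Fasn and Acaca thus had non-overlapping sums in these 2 classes, and Acly did not.

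**Figure D4:**
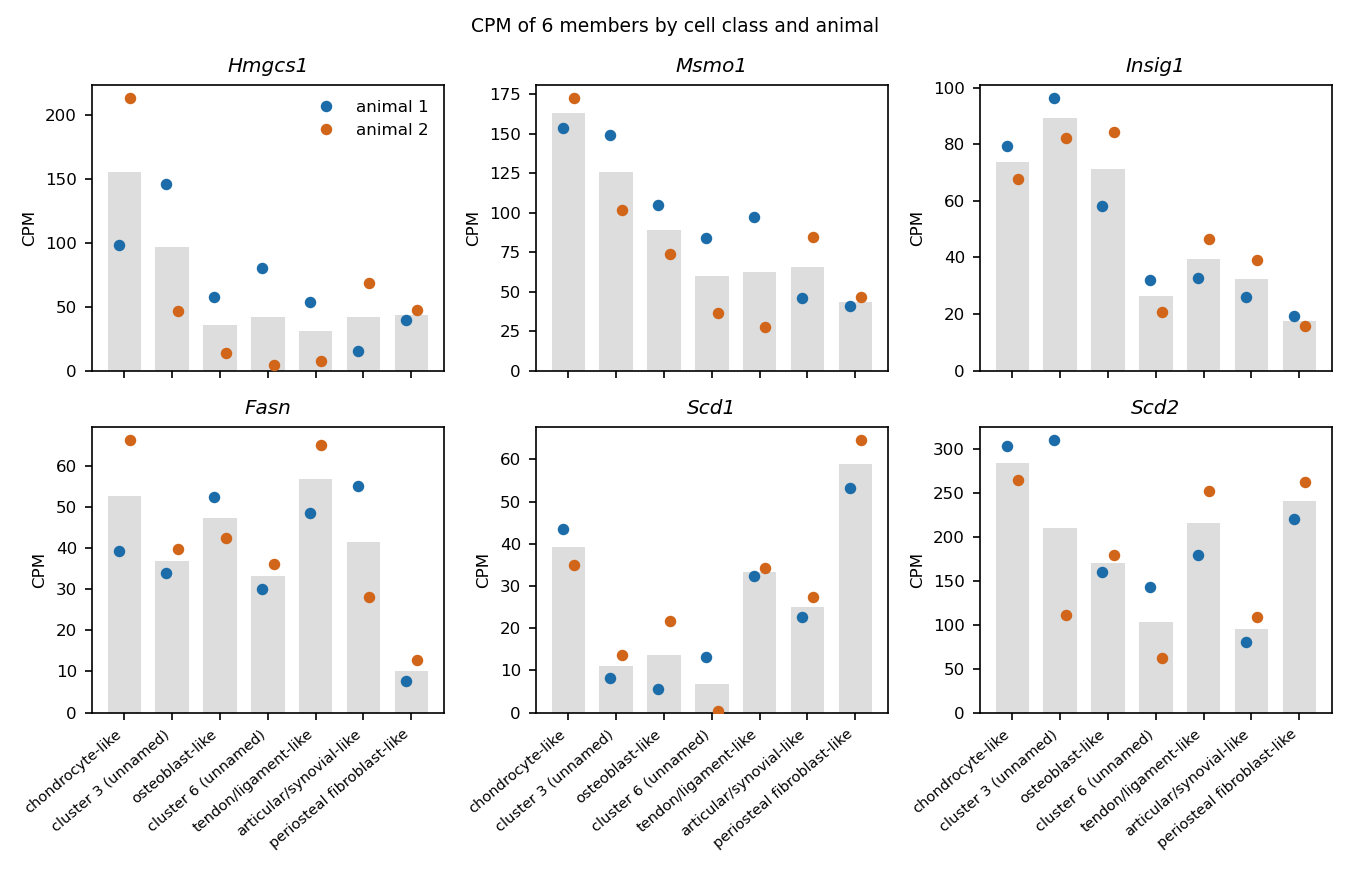
CPM of Hmgcs1, Msmo1, Insig1, Fasn, Scd1 and Scd2 by cell class; points are the 2 animals and bars their mean. Insig1 and Fasn are lowest in periosteal fibroblast-like cells, at 15.8 to 19.3 and 7.60 to 12.7 CPM, while Scd1 is highest there, at 53.3 and 64.6 CPM.

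Single cells mostly showed few members at once. At 5 or more counts per gene, chondrocyte-like cells showed a mean of 3.39 of the 22 sterol genes and osteoblast-like cells 3.32, against 1.52 in periosteal fibroblast-like, 1.24 in articular/synovial-like and 1.11 in tendon/ligament-like cells. Thinned to 10000 counts per cell, with any count taken, the means were 2.68, 2.64, 1.37, 1.17 and 0.972, in the same order. At least 5 sterol genes were seen in 27.5% of chondrocyte-like cells (19.1% to 37.2%) and 8.50% of periosteal fibroblast-like cells (4.60% to 14.1%). These intervals too take the cells of both animals together and leave out the spread between animals. No sterol gene was seen in 18.6% of chondrocyte-like and 39.9% of periosteal fibroblast-like cells. The most in a cell was 16 sterol genes, in a chondrocyte-like cell.

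For the fatty acid genes the cells of these classes looked more alike, with means of 1.23 of 8 in chondrocyte-like and 0.974 in periosteal fibroblast-like cells and none seen in 37.3% of either. Across the 102 chondrocyte-like cells, 17 members were seen in at least 10% of cells, and the median Pearson correlation of their 136 pairs, on log2(CPM + 1), was 0.19. The closest pair was Hmgcs1 and Msmo1, at 0.52. Osteoblast-like cells were alike in this, with a median of 0.20 over 153 pairs of 18 members and Sqle and Cyp51 closest, at 0.66. Medians in the other tested classes ran from 0.071 to 0.109. They rest on fewer members, 5 to 14, and 10 to 91 pairs, since members were chosen by detection within each class. The medians of different classes thus cover different pairs. The cells share their plates, and the summed sterol level itself had a correlation with log2 depth. It was 0.24 in chondrocyte-like and 0.38 in osteoblast-like cells, so these values are a description.

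**Figure D5:**
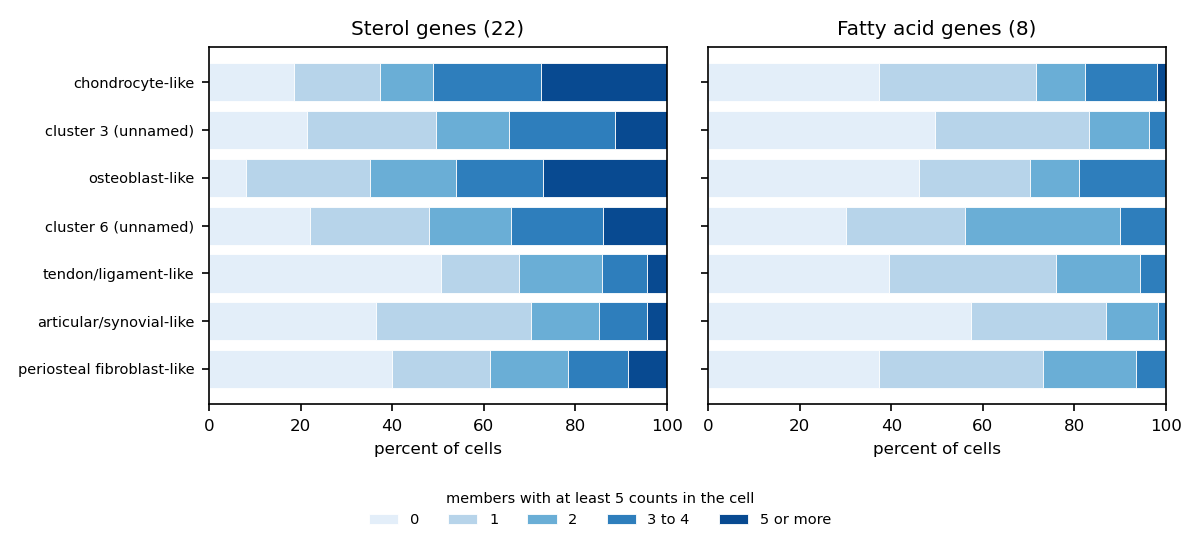
Percent of cells in each class with 0, 1, 2, 3 to 4, or 5 or more members at 5 or more counts, for the 22 sterol genes (left) and the 8 fatty acid genes (right). Cells with 5 or more sterol genes make up 27.5% of chondrocyte-like and 27.0% of osteoblast-like cells, against 8.50% of periosteal fibroblast-like cells. The osteoblast-like class also held counts of chondrocyte markers and may be mixed.

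Other genes of the pathway were taken from lists. Of 8 further sterol synthesis genes, none passed the threshold of edgeR's test in any comparison, and 5 of 8 had a direct log2 difference above 0, with a median of 0.56. Of these, Tmem97, a sterol-binding membrane protein named after its values were seen, had an adjusted p of 0.170 with edgeR and 0.0419 with DESeq2's Wald test in the direct comparison, at a log2 difference of 1.67 ± 0.48 (SE). The sum of the 8 in chondrocyte-like cells was 1.35 and 1.20 times that in periosteal fibroblast-like cells. The 6 genes of SREBP processing summed to 0.718 and 0.528 times, the 8 of sterol uptake in the table to 0.501 and 0.616 times, and the 9 of sterol efflux and storage to 0.563 and 0.775 times the periosteal fibroblast-like level. A list of 17 further fatty acid synthesis genes summed to 0.731 and 0.664 times that level, below 1 where the 8 fatty acid members were above 1, and the fatty acid oxidation genes to 0.632 and 0.573 times. In these lists Scarb1 alone passed edgeR's test, the receptor for high-density lipoprotein: it had no count in tendon/ligament-like cells of either animal, against 41.6 and 45.3 CPM in chondrocyte-like and 22.7 and 25.3 CPM in periosteal fibroblast-like cells (edgeR, adjusted p = 0.0256). The adjusted p was 0.0543 without the highest wells and 0.0508 with clusters on variable genes. Taking 3 counts per sum for tendon/ligament-like cells, Scarb1 was at least 31.8-fold lower there than the geometric mean of the other classes. Over all genes, 0.51% passed for tendon/ligament-like cells and up to 2.15% in the other comparisons. A single call over all these lists and comparisons thus says little about the lists.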

How the data were processed

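The deposited table holds whole-number counts per gene and well. Per the labels' protocols, full cDNA was made by template switching in sorted wells, amplified by PCR, pooled and sequenced, and the submitters' processing notes name CASAVA and the mm10 genome. The aligner, the counting tool, the annotation and any collapsing of duplicates have no entry in the labels or headers (not given in the sources used here). The median nonzero count was 18 and 23.1% of nonzero counts were 1, so the counts are taken as amplified reads and not as molecules. Reads shared with paralogs or pseudogenes (Fdps and the Scd genes, for example) are uncertain.

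Wells kept had at least 500 genes and at most 20% mt- counts, which left out 5, and held 9767 to 675621 counts. All 95 well barcodes were used on both plates. No doublet caller was run on these singly sorted cells. Cells were clustered (leidenalg 0.10.2, resolution 1, 20 components, 15 neighbours) on 116 markers. Clusters were named from at least 3 raised markers. Counts were summed over each class and animal with at least 10 cells in each animal. These 14 sums were fitted with edgeR 4.0.16 (R 4.3.3; TMM scaling, filterByExpr, animal as a block because both animals gave every class, 6 residual degrees of freedom). All 30 members passed the filter. The SE printed with edgeR's values is the size of the log2 difference divided by the square root of the test's F. It is not meaningful where a class had no count. The fit was tested on simulated data. DESeq2 1.42.0 and limma 3.58.1 were alternatives, as were other filters, scalings, clusterings, thinning to 10000 counts, and leaving out the highest well or an animal.

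CPM scale each count to the total of its class sum and are not divided by length. The members and lists were chosen with earlier results of these data known. Values for every class were planned for the 5 members with the highest mean, the 3 with the widest range between classes, and any that passed the test; the other members given in full, such as Insig1, Fasn, Scd1 and Cyp51, were chosen after their values were seen. P-values rest on 2 littermates.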

Additional observations from a re-analysis of the deposited data

How the results depend on the processing

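No pooled value reversed its direction, but 1 animal's fatty acid ratio fell below 1, to 0.952, at resolution 0.5. Of 30 members, the count called for periosteal fibroblast-like cells was 0 and became 2 with DESeq2's Wald test (Fasn, Insig1), 1 without the replicate block (Fasn) and 1 without the highest well (Scd1). The shares of all genes called in these settings were 5.86%, 2.64% and 4.27%, in that order. In the direct comparison the count of members was 0 and became 3 with DESeq2 (Fasn, Insig1, Msmo1), 1 without the replicate block (Insig1) and 1 with clusters on variable genes (Insig1). Here the shares of all genes were 7.43%, 1.95% and 1.93%. The block changed no other count of members called. The cause was not tested. The sterol ratio of chondrocyte-like to periosteal fibroblast-like cells, 2.32, was 2.43 without the highest wells, 2.62 with TMM scaling, 2.02 at resolution 0.5, and, in alternatives chosen after seeing the data, 2.16 without Msmo1 and 2.42 without cluster 8; it was 2.25 to 2.39 with an animal left out. The fatty acid ratio, 1.32, was 1.13 as a mean of cell CPM, 1.19 without the highest wells, 1.16 with cells thinned, 1.49 with TMM scaling, 1.10 at resolution 0.5 and 1.52 without Scd2 (also chosen after seeing the data), and 1.28 to 1.36 with an animal left out. Fatty acid members with non-overlapping sums went from 4 to 2 with clusters on variable genes, and the ratio of sterol members seen per cell was 2.23 at 5 or more counts. Genes called over the whole table moved more: from 277 to between 175 and 802 in the direct comparison, from 295 to 202 to 648 for periosteal fibroblast-like cells, from 116 to 85 to 452 for chondrocyte-like cells, from 1 to as many as 135 for articular/synovial-like cells, from 56 to 36 to 338 for cluster 3, from 46 to 5 to 579 for cluster 6, from 104 to 51 to 627 for osteoblast-like cells and from 70 to 49 to 612 for tendon/ligament-like cells. Fits on 1 animal gave values and no test, and osteoblast-like cells and cluster 3 had no value under clusterings that left too few of their cells. Acat2, Idi1, Fads2, Lss and Tm7sf2 each had no count from either animal in at least 1 tested class. There, only the floor of 3 counts bounds the level.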
